A study of Mus musculus with 13 samples.

Results

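Intergenic regions are stretches of the genome where STAT3 CUT&RUN peaks lie away from any protein-coding gene but near enough to have a plausible neighbour. Peaks of the 12 antibody libraries were merged into 11227 regions wherever they overlapped by at least 1 bp. A region was taken as intergenic when the summit of its best peak lay outside every RefSeq protein-coding gene span, more than 1000 bp and at most 50000 bp from the nearest one. This held for 2682 regions, 23.9% of the total, with 3068 peaks and 2260 different nearest genes. The rule used position only, so recurrence, fold and their relation to the treatments were free to vary.

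CUT&RUN uses an antibody, here anti-STAT3 clone 124H6, to bring a nuclease to its target and then sequences the DNA fragments cut free. Mouse splenic B cells had 96 h of anti-CD40 (1 µg/mL) with IL-4 (12.5 ng/mL), were sorted into IgM+ and IgG1+ cells, and 400000 of them received anti-CD40 with IL-4 (12.5 ng/mL) or with IL-21 (10 ng/mL) for 1 h. Wild-type (WT) cells gave 2 libraries for each combination of treatment and isotype, 8 in all, and STAT3 KO cells gave 1 each, 4 in all. No IL-4 is recorded for the hour with IL-21, so the effect of IL-21 and that of withdrawing IL-4 cannot be told apart. They name neither the allele or Cre driver of the KO cells nor separate animals for the replicates, so a p-value reflects spread among these libraries alone, possibly a technical one. Peak lists hold no marker of B cells and no measure of the deleted gene, and genotype and cell type rest on the labels.

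STAT3 is a transcription factor that cytokine receptors activate through JAK kinases. Phosphorylated STAT3 dimers enter the nucleus and bind short palindromic elements of the form TTCNNNGAA, many of them in enhancers far from the genes they act on. In B cells IL-21, made by T follicular helper cells, is the best known STAT3-activating cytokine and drives germinal centre and plasma cell responses, whereas IL-4 works mainly through STAT6. Naming a region after its nearest gene gives its place, not a target.

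The reference used here holds sequence for few intergenic regions, because only gene starts and miRNAs were at hand. Intergenic regions overlapped 32 promoter windows of 300 bp, all of non-coding genes, and 4 of the 32 (12.5%) held TTCNNNGAA. The regions at 2 of these had a peak with IL-21 in WT cells alone, and those at the other 2 in KO cells alone. The motif reads the same on both strands, and 2726 of all 32851 RefSeq promoter windows of that length (8.30%) held it.

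The region upstream of Irf1, found in all 4 WT IL-21 libraries, is shown first because it contains the 58-base hairpin of Mir7671 (chr11:53763597-53763654, minus strand, GRCm38.p6). A copy of the motif, in capitals, lay in that hairpin 159 bp from the summit of the region. Of 1005 RefSeq mouse hairpins, 17 (1.69%) held the motif.
Mir7671 hairpin: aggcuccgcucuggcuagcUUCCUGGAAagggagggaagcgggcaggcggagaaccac

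Of the 32 windows, 22 contain the summit itself. Mir22hg and A930006K02Rik are shown from these, with the 21 bases centred on the summit in capitals. Mir22hg is the host transcript of miR-22, and its window is at chr11:75461289-75461588 on the plus strand. The region there was found in the first IgM and the second IgG1 library with IL-21, with folds of 8.23 and 3.81, and lay 6584 bp from Wdr81. A930006K02Rik is a non-coding gene 20071 bp from Ifnar1, which encodes a chain of the type I interferon receptor, with its window at chr16:91464854-91465153 on the plus strand. Its region had a peak in 3 KO libraries and in 1 WT library of either treatment, so it is shown as a contrast. Neither window held TTCNNNGAA, which says only that these letters are not in it.
Mir22hg window: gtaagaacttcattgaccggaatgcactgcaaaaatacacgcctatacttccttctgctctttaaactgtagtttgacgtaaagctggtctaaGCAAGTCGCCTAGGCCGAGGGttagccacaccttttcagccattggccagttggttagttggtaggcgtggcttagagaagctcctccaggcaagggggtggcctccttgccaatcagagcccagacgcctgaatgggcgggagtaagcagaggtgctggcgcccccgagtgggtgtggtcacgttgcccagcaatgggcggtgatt
A930006K02Rik window: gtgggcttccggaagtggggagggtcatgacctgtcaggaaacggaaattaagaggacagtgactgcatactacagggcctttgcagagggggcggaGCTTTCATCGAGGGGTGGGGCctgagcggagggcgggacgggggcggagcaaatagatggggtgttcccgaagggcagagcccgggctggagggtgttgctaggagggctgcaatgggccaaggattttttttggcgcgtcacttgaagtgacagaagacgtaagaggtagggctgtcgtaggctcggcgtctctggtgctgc

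Besides coding genes, intergenic regions have miRNA genes as neighbours. The region of all 4 WT IL-21 libraries nearest Pttg1 has its summit 10887 bp from the mature miR-146a-5p, a brake on NF-κB signalling, and the Mir22hg region has its summit 2380 bp from miR-22-3p. Both mature sequences are given with the seed, bases 2 to 8, in capitals, and the seeds differ.
miR-146a-5p: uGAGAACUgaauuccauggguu
miR-22-3p: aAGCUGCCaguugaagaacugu

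Intergenic regions were mostly seen once. Of the 2682, 2476 came from a single library and 206 (7.68%, exact 95% Clopper-Pearson interval 6.70% to 8.75%, counting error only) from at least 2. The share was 26.6% for the 1913 regions within 1 kb of a gene end, 5.69% for the 4413 regions inside genes and 3.70% for the 2219 regions further than 50 kb out. Within each library, 16.6% of intergenic regions on average were found in another library, against 49.6% of the gene-end regions. The difference of -33.0 ± 8.50 percentage points (SD, n = 12 libraries) had the same sign in 12 of 12 libraries (two-sided exact sign-flip permutation test, p = 0.000488, the smallest possible; adjusted p = 0.00146). A region shared by 2 libraries counts in both. The 12 differences are therefore not independent, although the test takes them as such, and its p may be too small, here and below. Against regions inside genes the difference was 2.55 points and did not pass the test (exact permutation p = 0.0566). Against regions beyond 50 kb it was -1.12 points (exact permutation p = 0.632), lower in 6 libraries and higher in 6. Intergenic recurrence exceeded that of these far regions by 8.02 points with IL-21 in 4 of 4 WT libraries, and differed by -9.37 points with IL-4, also in 4 of 4, each at the smallest exact permutation p of 0.125.

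Recurrence was then compared between treatments in WT cells. With IL-21, 35.6% and 37.1% of the intergenic regions of the 2 IgM libraries and 28.0% and 37.0% of those of the 2 IgG1 libraries were found again in another of the 12 libraries. With IL-4 the shares were 4.36% and 4.62% in IgM and 1.23% and 3.91% in IgG1 cells. The 2 sets of 4 did not overlap, and the mean difference was 30.9 percentage points. Its two-sided exact permutation p of 0.0556 (adjusted p = 0.167) is the smallest that 36 arrangements within isotype allow, so this test cannot reach 0.05. The gap was 31.9 points in IgM and 29.9 points in IgG1 cells.

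Part of a library's recurrence comes from how many other libraries of its kind exist, and the WT IL-21 lists were also longer. With lists of 623 peaks each, the length of the shortest, the treatment difference was 48.5 points. Pairs of libraries give a view that does not depend on group size. The replicate IgM libraries with IL-21 shared 93 intergenic regions, 20.7% of the first and 32.5% of the second, and the IgG1 replicates shared 50, 24.2% and 14.8%. With IL-4, the IgM replicates shared 1 and the IgG1 replicates shared 1, in both cases the region near Col19a1.

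**Figure D1:**
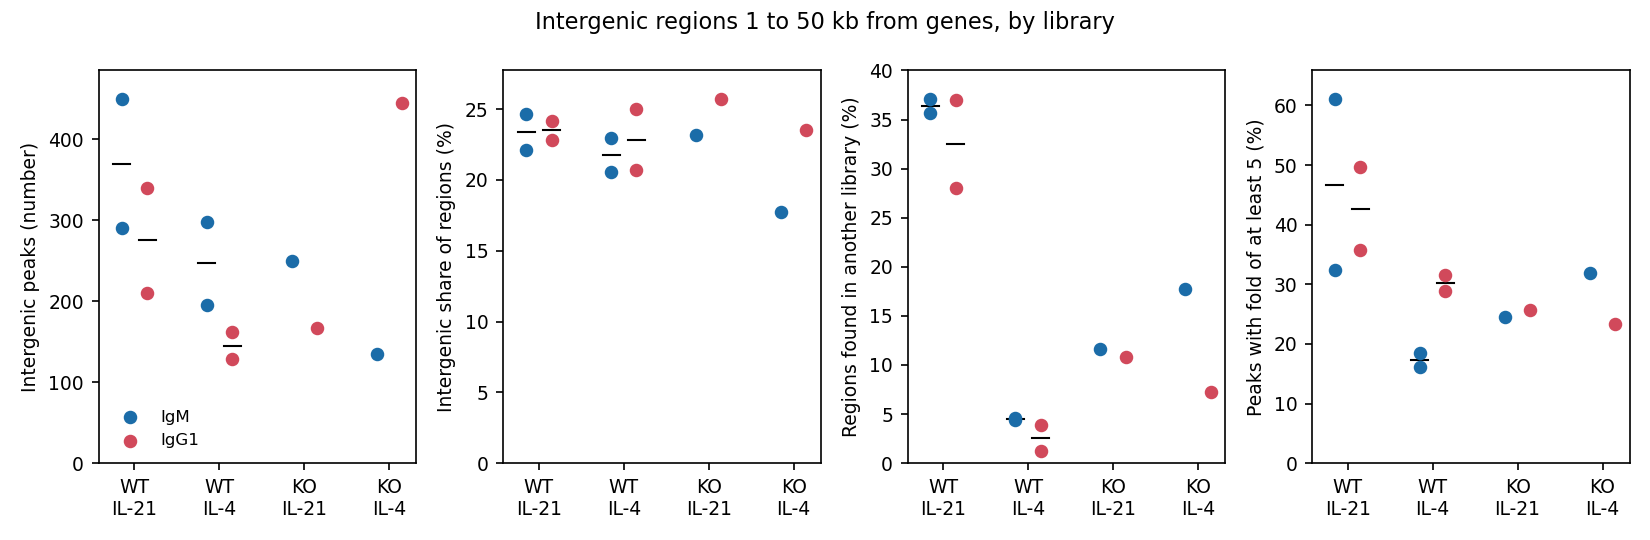
Number of intergenic peaks, intergenic share of all regions, share of intergenic regions found in another library, and share of intergenic peaks with a fold of at least 5, for each library. Points are libraries (blue IgM, red IgG1) and bars are means of 2 replicates. The 4 WT IL-21 libraries lie between 28.0% and 37.1% in recurrence, above all other libraries.

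Numbers of intergenic peaks overlapped between treatments. WT IL-21 lists held 449, 290, 210 and 340 of them (IgM 1 and 2, IgG1 1 and 2), and WT IL-4 lists 298, 195, 162 and 128. The difference was 0.74 on the log2 scale (exact permutation p = 0.111). Restricted to peaks with −log10 q or with fold of at least 5 it was 2.42 and 1.66, both at the smallest exact permutation p of 0.0556, and with lists of equal length 0.16 (exact permutation p = 0.333). The intergenic share of a library's regions stayed between 20.6% and 25.0% over the 8 WT libraries, and the mean with IL-21 was 23.4% ± 1.18 against 22.3% ± 2.11 with IL-4 (SD, n = 4 each; exact permutation p = 0.444). Gene-end regions made up more of the IL-21 lists: on the log2 scale the ratio of intergenic to gene-end regions was lower by 0.90 with IL-21 (means -0.26 and 0.64, no overlap of the libraries), again at the limit of p = 0.0556 in the exact permutation test. It was lower by 0.19 among peaks with −log10 q of at least 5 (exact permutation p = 1.0) and by 0.61 among those with fold of at least 5 (exact permutation p = 0.167).

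MACS2 gives each peak a fold, the signal at its summit over an estimated background, which is the authors' value and is used here within lists. Whether the input served as the control for that background is not given in the sources used here. A fold of at least 5 was reached by 61.0%, 32.4%, 35.7% and 49.7% of the intergenic peaks of the 4 WT IL-21 libraries and by 16.1%, 18.5%, 31.5% and 28.9% with IL-4. The lowest IL-21 library was above the highest IL-4 library, by a narrow margin, and the mean difference of 21.0 points was at the smallest p of 0.0556 (exact permutation). This difference had the opposite sign, -2.29 points, when peaks under a −log10 q of 5 were dropped. Intergenic peaks reached a fold of 5 less often than gene-end peaks in 12 of 12 libraries, by 7.47 points on average (exact permutation p = 0.000488; adjusted p = 0.00146), and more often than peaks beyond 50 kb in 11 of 12, by 9.15 points (exact permutation p = 0.00586; adjusted p = 0.0117).

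A region was called gained when all WT IL-21 libraries compared had a peak there and no WT IL-4 library compared had one. In both isotypes together 28 of the 1776 intergenic regions with a WT peak were gained, 1.58%, against 98 of all 7461 WT regions (1.31%) and 40 of 1447 gene-end regions (2.76%). The reverse, lost with IL-21, held for 0 of 1776. Each of the 28 had an unadjusted p of 0.0286 in Fisher's exact test of 4 against 4 libraries, the smallest it can give, and 0 passed after Benjamini-Hochberg adjustment over the 7461 regions (adjusted p = 1). KO cells given IL-21 had no peak in any of the 28, and 1 of 28, near Eapp, had a peak in KO IL-4 IgG1 cells with a fold of 7.26. Of all 1776 intergenic regions with a WT peak, 49 (2.76%) had any KO peak, so KO peaks were rare in gained and other regions alike.

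Within IgM cells, 86 of 1119 intergenic regions were gained (7.69%, against 6.64% of all regions), and within IgG1 cells 48 of 782 (6.14%, against 5.54%). Of the 86, 60 also had a peak in at least 1 IgG1 library with IL-21, and of the 48, 45 in at least 1 such IgM library. Intergenic regions lost in IgM cells numbered 0 of 1119 (10 of 4851 regions of any position, 0.206%), and those lost in IgG1 cells 0 of 782 (1 of 3268, 0.0306%).

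Most regions re-found with IL-21 had no IL-4 peak, which was not particular to re-found regions. Of the 1776 intergenic regions with a WT peak, 1017 had one with IL-21 and 779 with IL-4, so few had both. Of 149 intergenic regions with at least 2 WT IL-21 libraries, 140 (94.0%) had no WT IL-4 peak, 137 (91.9%) had no KO peak and 130 had neither. Over all 693 regions of that kind, 544 (78.5%) had no IL-4 peak, 568 (82.0%) no KO peak and 491 neither. Among 289 gene-end regions chosen the same way, 209 (72.3%) had no IL-4 peak. The counts were 156 of 188 (83.0%) inside genes and 39 of 67 (58.2%) beyond 50 kb. In each IL-21 library, the share of such regions with an IL-4 peak was 5.76% to 10.9% for intergenic regions, mean 8.07% ± 2.13, and 30.8% ± 6.08 for gene-end regions (SD, n = 4). For regions inside genes it was 21.1% ± 6.69. The share was lower for intergenic regions than for either class in 4 of 4 libraries, at the smallest exact permutation p that 4 libraries allow, 0.125. In the other direction, 2 of 779 intergenic regions of WT IL-4 libraries were found in at least 2 of them, those near Col19a1 and Glt28d2. A KO peak was more frequent in re-found regions. It was present in 8.70% ± 2.21 of those of each IL-21 library (SD, n = 4), against 49 of all 1776 (2.76%).

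**Figure D2:**
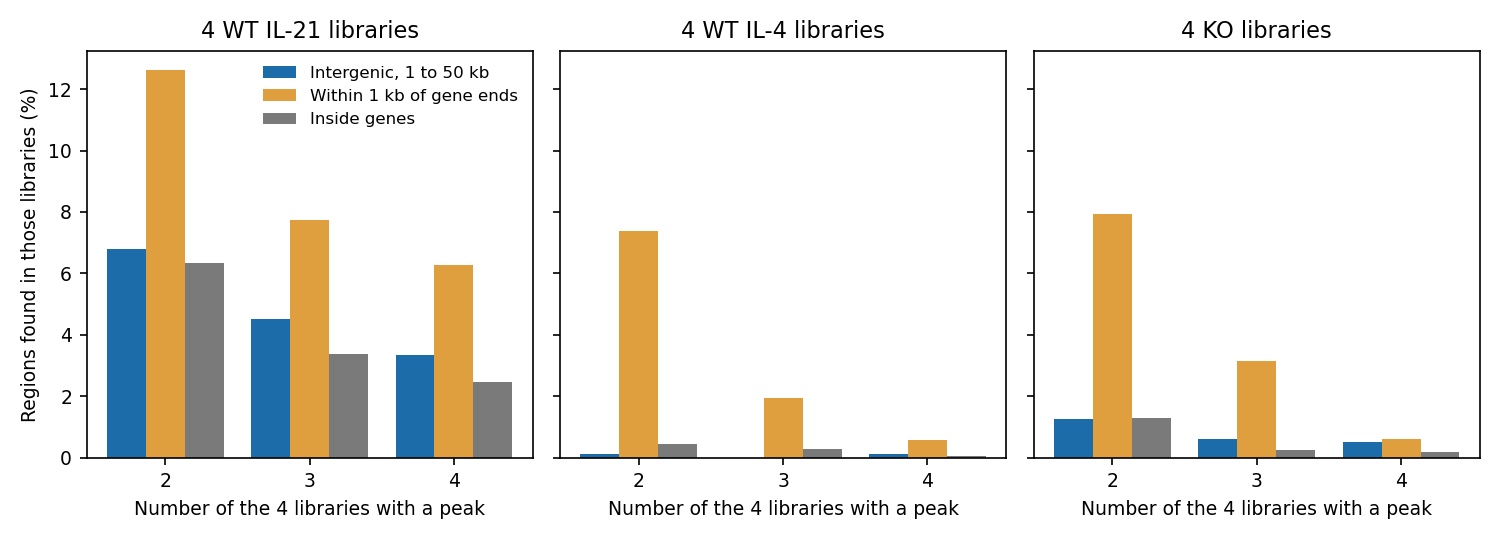
Share of regions found in 2, 3 or 4 libraries among the 4 libraries each of WT with IL-21, of WT with IL-4 and of KO, for intergenic regions, regions within 1 kb of gene ends and regions inside genes. With IL-21, 6.78%, 4.52% and 3.34% of intergenic regions were found in 2, 3 and 4 libraries, and with IL-4 0.128%, 0% and 0.128%.

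The 34 intergenic regions found in all 4 WT IL-21 libraries were 3.34% of the 1017 found in any (3.88% for all regions). They were wider than most, with a median of 971 bp against 260 bp for all intergenic regions, but their median distance to a gene was alike, 11849 bp against 13097 bp. Region width grows with merging, so it is not independent of recurrence. The first IgM library gave the highest fold for 28 of the 34 and the first IgG1 library the lowest for 24, and their median folds there were 12.9 and 6.73. The folds below are given in the order IgM 1, IgM 2, IgG1 1, IgG1 2, all with IL-21.

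Several of these regions lay near genes of feedback on JAK-STAT signalling. SOCS3 binds cytokine receptors and JAKs and ends STAT3 activation. The region at chr11:117951914-117953025, 13532 bp downstream of Socs3, had folds of 25.0, 16.6, 9.92 and 21.0, mean 18.1 ± 6.47 (SD, n = 4). It ranked 2, 2, 4 and 2 among the intergenic peaks of those libraries, and neither IL-4 nor KO lists held a peak there. A second region at 2517 bp (chr11:117962928-117963930) had folds of 18.7, 11.4, 4.87 and 11.2. One more at 19097 bp (chr11:117946243-117947319) had 13.7, 4.66, 5.70 and 5.06. Regions at 6044 and 16388 bp were seen in 3 of 4 libraries, missing in the first IgG1 library, with mean folds of 7.36 and 5.25. Socs3 was thus the nearest gene of 5 intergenic regions found in at least 2 WT IL-21 libraries, more than any other gene.

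These 5 and 2 further regions nearest Tha1, the threonine aldolase gene at the far side of the interval, formed the longest chain of such regions, 7 over 85693 bp (chr11:117878238-117963930). In this interval the 4 WT IL-21 libraries had 9, 7, 4 and 8 intergenic peaks, while 1 of 4 WT IL-4 libraries had 1 and the KO libraries had 0. The Tha1 region found 4 times had folds of 8.98, 3.82, 4.96 and 4.96.

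**Figure D3:**
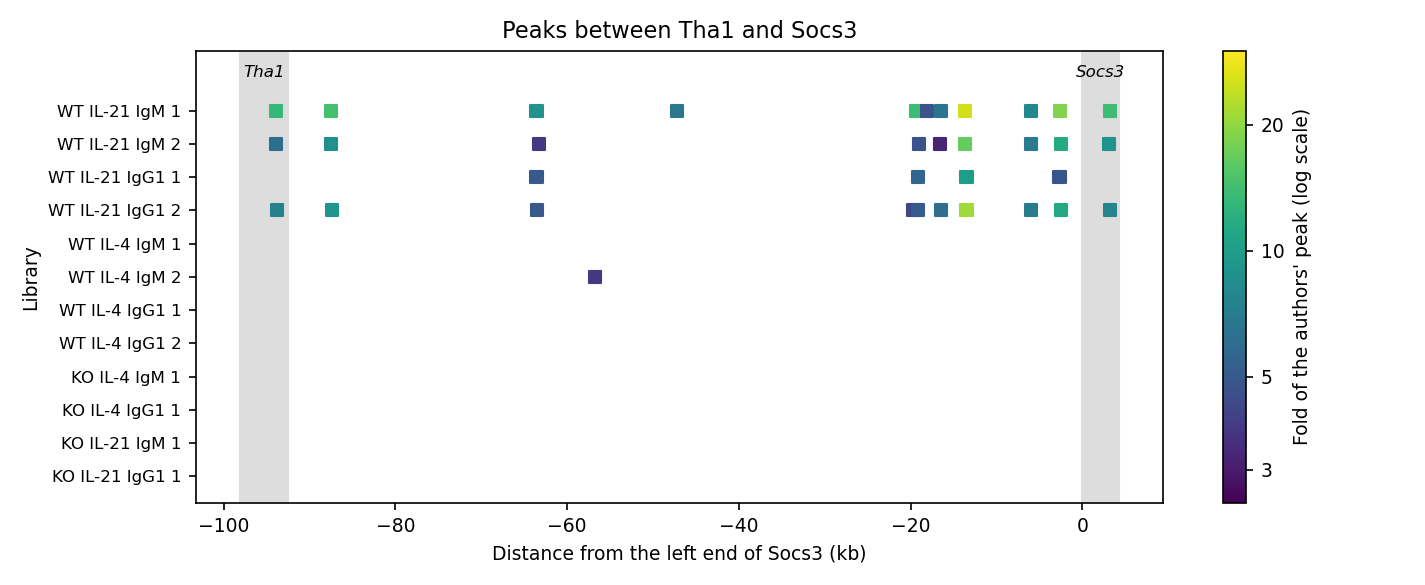
Peaks of every library between Tha1 and Socs3, as squares at the middle of each peak, coloured by fold on a log scale, with the 2 gene spans in grey. The x axis is the distance in kb from the left end of Socs3. Squares fill the 4 WT IL-21 rows, and 1 IL-4 library has a single peak.

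PTP1B, encoded by Ptpn1, removes phosphate from JAKs. The region 5490 bp upstream of Ptpn1 (chr2:167924970-167925529) had even folds of 7.08, 7.36, 5.67 and 5.75 and no other peak. A second, at 20378 bp, was found in 1 library of each isotype. Cish, a further SOCS family member, had a region at 10444 bp with folds of 13.1 and 7.27 in IgM cells and 9.09 in the second IgG1 library. Socs1, which inhibits JAK kinase activity, had one at 11398 bp with folds of 9.96 in the first IgM library and 5.91 and 5.20 in IgG1 cells. Neither had an IL-4 or KO peak in these regions, although another Cish region, at 5382 bp, was called in 1 WT IL-21 and 1 KO IL-21 library. Jak1 itself had 2 adjoining regions at 26848 and 27778 bp upstream, each in 2 WT IL-21 libraries. The kinase gene Pim1 and the phosphatase gene Ptpn11 had 1 each, also in 2.

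Counting the JAK-STAT list as a whole, 14 of its 41 genes were the nearest gene of an intergenic region, and 5 of those 14 (Cish, Jak1, Ptpn1, Socs1 and Socs3) had one gained in either isotype. Over all 2260 nearest genes the count was 97, 4.29%. The list was drawn up with earlier results of these data known, so its count is a description.

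On the list for the identity and germinal centre programme of B cells, 9 of 35 genes were nearest to an intergenic region. Of the 9, 4 were nearest to a gained one, against 97 of all 2260 nearest genes (4.29%). CCR7 guides lymphocytes to T cell zones. The Ccr7 region (chr11:99132263-99132802, 11813 bp away) had folds of 18.4, 7.47, 8.90 and 12.6 and no IL-4 or KO peak. Irf8, a transcription factor of germinal centre B cells, had a region 10719 bp upstream with folds of 4.60, 4.73 and 4.95 in the IgM and second IgG1 libraries, and another at 20824 bp in 2 libraries. A further one 27863 bp from Cox4i1 lay in the same interval, with folds of 9.18, 6.64, 4.77 and 5.69, so that 3 regions spanned 23829 bp there. Bcl11a, required for early B cell development, had a region with folds of 7.0, 6.28 and 6.57 that KO IL-4 IgM cells also had, at 5.08. The S1pr1 region, near the receptor for egress from lymphoid organs, appeared in the 2 IgM libraries with folds of 6.0 and 7.75. Cd83 had a region found in 2 WT IL-21 libraries.

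The regions near Irf1, Dll4 and Mllt6 had peaks in all 4 WT IL-21 libraries and in 1 IL-4 library each. IRF1 is an interferon-responsive transcription factor, and the region 6224 bp upstream of Irf1 (chr11:53763109-53764154), which carries the hairpin shown above, had folds of 16.2, 10.7, 6.61 and 13.6. It was also called in the second IL-4 IgM library, with a fold of 4.02. DLL4 is a Notch ligand, and the region 2231 bp downstream of Dll4 had folds of 16.4, 11.5, 6.99 and 9.07, with 4.10 in that same IL-4 library. The region 3202 bp upstream of Mllt6, a partner gene of MLL fusions, had folds of 24.4, 14.3, 11.7 and 13.3, and lower ones in an IL-4 IgM (4.01) and a KO IL-4 IgM library (4.89). Having an IL-4 peak in IgM cells, these 3 were not counted as gained in both isotypes or in IgM cells. They were counted as gained in IgG1 cells.

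The largest mean fold of all was 7634 bp upstream of Glt28d2 (chr3:85894512-85895450). It had folds of 20.8, 19.9, 13.0 and 21.2 with IL-21, mean 18.7 ± 3.85 (SD, n = 4), and ranked first in 3 of the 4 lists. With IL-4, it had 6.60 in the first IgM and 9.77 in the first IgG1 library and no peak in either second replicate. No KO library had it.

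Med29, Stard3nl and Mylip regions were also among those with the highest mean folds. The region 2823 bp downstream of Med29, a Mediator subunit gene, had folds of 22.0, 13.7, 8.65 and 15.1. That 22380 bp from Stard3nl, encoding a protein of endosome membranes, had 15.9, 12.4, 11.9 and 14.3, the most even of the 5 highest. Mylip encodes a ubiquitin ligase that degrades the LDL receptor, and the region 31629 bp downstream of it showed the widest spread, 27.2, 8.96, 4.82 and 13.0. All 3 were free of IL-4 and KO peaks.

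Regions near Frmd8, Prag1 and Kcnj6 had folds of 19.5, 12.4, 6.85 and 10.5 for Frmd8, 19.1, 9.96, 7.31 and 9.91 for Prag1 and 15.9, 10.7, 7.05 and 11.7 for Kcnj6. The Frmd8 region lies 1199 bp from the lncRNA gene Neat1, the scaffold of paraspeckles. Mrps18a, a mitochondrial ribosomal protein gene, had 11.3, 6.92, 6.35 and 14.2. None of these 4 had an IL-4 or KO peak.

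A further 19 of the 34 had mean folds of 4.70 to 9.47. They were nearest Ffar3, Azin1, Pttg1, Ilrun, Agfg1, Sppl3, Gimap4, Asap1, Slfn8, Zfp950, Eapp, Adamtsl4, Gprin3, Dot1l and Col19a1, besides the Socs3, Tha1, Cox4i1 and Ptpn1 regions above. Azin1 had an IL-4 peak in 1 library, with a fold of 4.00. The 28 gained regions as a set had mean folds of 5.68 to 18.1, median 9.07.

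**Figure D4:**
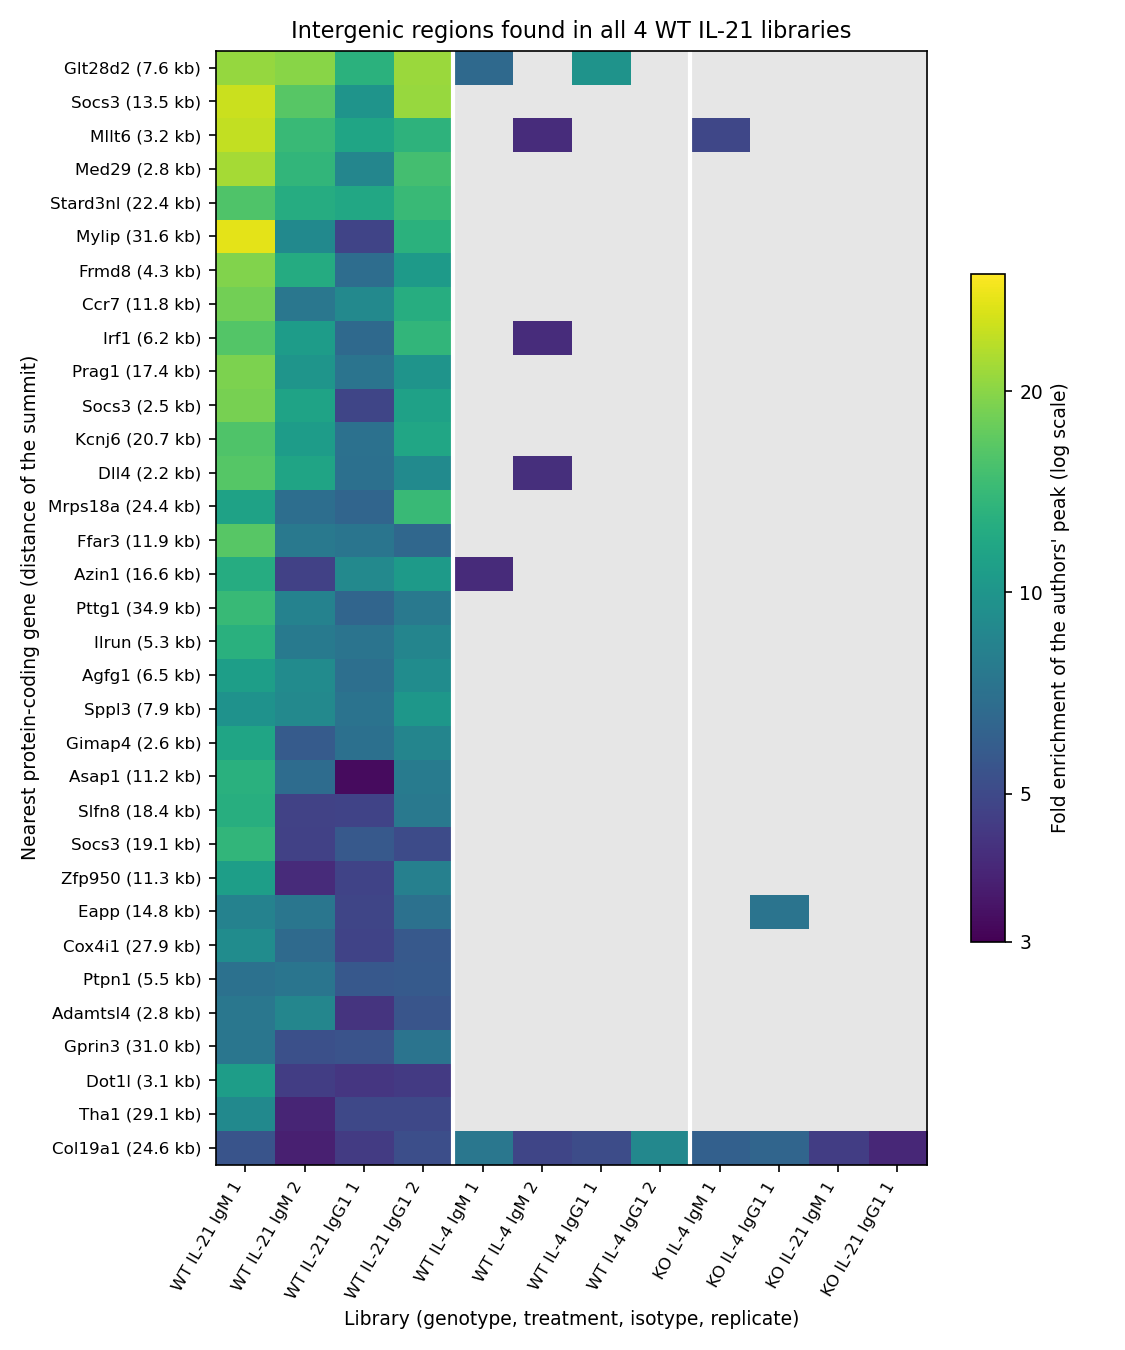
Fold of the authors' peak (colour, log scale) in each library for 33 of the 34 intergenic regions found in all 4 WT IL-21 libraries, ordered by mean fold, with grey for no peak. Rows are named by the nearest gene and its distance in kb. IL-4 and KO columns are grey except for 7 regions, and the last row, Col19a1, is filled in all 12.

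The Col19a1 region was the only intergenic one with a peak in at least 10 libraries, and it had one in all 12. It spans 4597 bp (chr1:24611560-24616156), lies 24572 bp upstream of Col19a1 and covers the pseudogene Gm10222. Its folds were 3.67 to 5.46 with IL-21, 4.84 to 8.79 with IL-4 and 3.89 to 6.34 in KO cells, so the ranges overlapped. Within each treatment the KO folds, 4.57 and 3.89 with IL-21 and 6.08 and 6.34 with IL-4, lay inside the WT range. Another region of many libraries, 17118 bp from Mrgprd, had 3 WT IL-21 and 4 KO peaks with folds of 1.43 to 2.06.

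Differences between isotypes could not pass the test for intergenic regions as a class, because its smallest possible exact permutation p is 0.0556. Not passing is therefore no evidence that the isotypes are alike. The p-values in this paragraph lay above that smallest value. Recurrence was 20.4% ± 18.4 in IgM and 17.5% ± 17.7 in IgG1 libraries (SD, n = 4 each), and the difference within treatments was 2.88 points (exact permutation p = 0.222). IgM lists had more intergenic peaks, by 0.59 on the log2 scale (exact permutation p = 0.111), and by -0.08 with lists of equal length. Shares of peaks with a fold of at least 5 differed by -4.45 points (exact permutation p = 0.5).

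At single regions, 26 were found in both IgM libraries with IL-21, in no IgG1 library with IL-21 and in no IgM library with IL-4, 2.32% of the 1119 intergenic regions of IgM cells against 1.86% of all 4851 regions. The strongest lay 4726 bp upstream of Mdm2, the ubiquitin ligase gene for p53, with folds of 11.7 and 11.9 (chr10:117715145-117715613). Next came Csf3r, the receptor of G-CSF and a myeloid marker, with 10.1 and 8.66 at 19183 bp, and Blnk, the B cell receptor adaptor, with 9.97 and 5.26 at 1416 bp. Mcl1, a survival gene of the BCL2 family, had 9.10 and 5.09 at 5827 bp. Crybg2, Tmem252, S1pr1 and Tent5c had mean folds of 6.95, 6.93, 6.88 and 6.55. None of these 8 had a KO peak. The reverse pattern, both IgG1 and no IgM library, held for 3 regions, 0.384% of 782 against 0.367% of all 3268, among them those near Ly6e (folds 4.85 and 4.20) and Rabggta (4.71 and 4.16). The first IgG1 library found only 52.3% of the 65 intergenic regions that the other 3 WT IL-21 libraries all had (exact 95% interval 39.5% to 64.9%), against 73.9% to 97.1% for each of those in turn. A region absent from IgG1 lists may therefore have gone uncalled, and whether these regions differ by isotype was not tested.

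The other lists had 0 to 3 genes with a gained region, against 97 of all 2260 nearest genes (4.29%). These lists too were drawn up with earlier results of these data known, so the counts are a description. For survival and proliferation the count was 3 of 9 genes with an intergenic region, Mcl1, Mdm2 and Pmaip1. For plasma cell differentiation it was 1 of 8, Jund, whose region 2119 bp upstream had folds of 7.77, 3.37 and 8.37 in the first IgM and both IgG1 libraries. Junb had a region at 1144 bp in 1 library of each isotype. For the IL-4 and STAT6 list it was 2 of 7, Cish and Socs1, which are also on the JAK-STAT list. Bhlhe41 had a region in 2 WT IL-21 libraries. NF-κB and CD40 genes gave 1 of 6, Tnfsf4, and Malt1 had a region shared by 1 WT IL-21 and 1 KO library. Of the markers of other cell types, 3 of 15 myeloid genes had an intergenic region and 1 of these, Csf3r, was gained, whereas 0 of 15 T and NK cell genes had one. Binding near a marker is no measure of its expression, and the part of other cells in these values was not tested. Among 14 housekeeping genes 1 had an intergenic region, Tfrc, and it was not gained.

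Other genes with several intergenic regions of at least 2 WT IL-21 libraries were Fgd2, an exchange factor for CDC42, with 3 within 5063 bp, and Dad1, Irf8, Jak1, Mrps18a, Ptpn1, Tha1, Timm8a2 and Tmem252 with 2 each. The Fgd2 regions had folds of 8.36, 5.81 and 5.48, of 7.08, 4.57 and 5.70, and of 4.55, 3.97 and 3.52 in 3 libraries each, and the first also a KO IL-4 IgM peak of 5.28. Vegfa and Mrps18a shared an interval of 42001 bp with 3 regions. In all, 38 of the 149 regions (25.5%) had another such region within 50000 bp.

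Genotype separated the libraries in opposite directions under the 2 treatments. With IL-21, recurrence was 34.4% ± 4.32 in WT (SD, n = 4) and 11.6% and 10.8% in the KO IgM and IgG1 libraries. With IL-4, it was 3.53% ± 1.56 in WT and 17.8% and 7.21% in KO. The WT minus KO difference was 23.2 points with IL-21 and -8.96 points with IL-4, and each WT library lay on the same side of its matched KO library. Each of these 2 differences had an exact permutation p of 0.111, the smallest that 9 arrangements allow. The difference between those was 32.1 points (two-sided exact permutation over 81 arrangements, p = 0.0123, the smallest possible; adjusted over 5 measures p = 0.0617), which does not pass. Averaged over treatments, WT was higher by 7.11 points (exact permutation p = 0.272). Since a KO group has 1 library and a WT group 2, part of a WT library's recurrence comes from its replicate.

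Pairs of libraries that differ in isotype alone are free of that. With IL-21, IgM and IgG1 libraries shared 38 to 109 intergenic regions in the 4 WT pairs and 9 in the KO pair. With IL-4 they shared 1 or 2 in the 4 WT pairs and 9 in the KO pair. Of the 9 shared KO regions, 4 under either treatment came from the single stretch described next, and 5 remained without it.

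That stretch is on chromosome 11. Intergenic regions with peaks in at least 2 KO libraries and in no WT library numbered 15 of 955 found in KO, 1.57%, against 51 of 4119 regions of any position, 1.24%. Of the 15, 11 lay within 18020 bp of each other, at chr11:116740219-116758238, with 3 more single-library KO regions between them. St6galnac1, a sialyltransferase gene, was the nearest coding gene for all of them, 6.79 kb to one side, and the annotation places the non-coding genes Gm11735 (chr11:116737804-116751558) and BC018473 (chr11:116752167-116757883) over the stretch. The KO libraries had 6 and 11 peaks with IL-4 (IgM, then IgG1) and 8 and 10 with IL-21 in it, and the 8 WT libraries had 0. Median folds were 4.93, 5.63, 6.11 and 5.93. Further KO peaks lay in St6galnac1 itself, and the IL-21 IgG1 library had 1 more between the stretch and the gene, which brought the counts to 7, 14, 9 and 13.

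All 4 KO libraries shared 2 of the regions. The one at chr11:116752462-116754356 had folds of 6.12, 6.29, 5.87 and 4.99, in the same order, and the one at chr11:116755394-116756387 had 3.54, 6.62, 7.41 and 5.62. In the first region both IL-4 folds lay above both IL-21 folds, and in the second the treatments overlapped. Stat3 lies on the same chromosome, 15.8 Mb away (chr11:100886806-100939594). The stretch was chosen because its peaks are in KO libraries, so it carries no test. Without it, mean recurrence in KO libraries was 8.74% in place of 11.9%, and the WT minus KO difference was 10.2 points (exact permutation p = 0.16, chosen after seeing the data). By library, KO recurrence without the stretch was 14.0% and 5.30% with IL-4 (IgM, then IgG1) and 8.71% and 7.01% with IL-21. The 4 other KO-only regions were near Epn2, Rdm1, Gm45871 and Gm52481, each in 2 KO libraries. Their mean folds were 6.35, 5.19, 1.77 and 2.88, so the last 2 were weak.

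**Figure D5:**
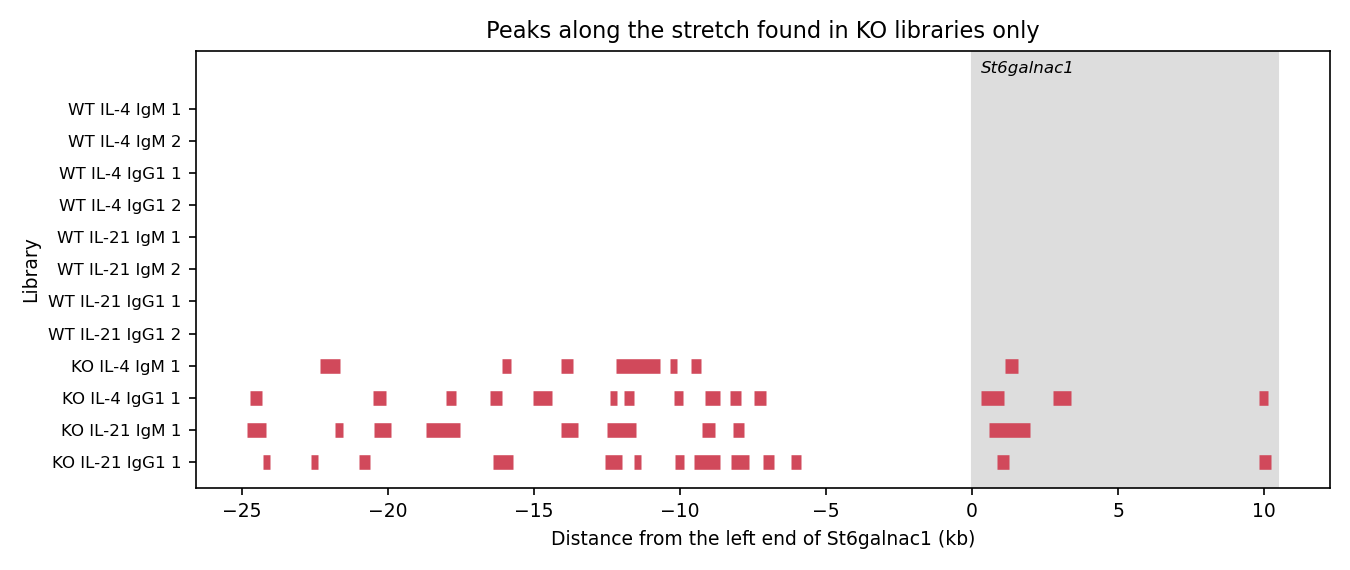
Peaks of each library along the chromosome 11 stretch, as bars from start to end of the peak, with St6galnac1 in grey. The x axis is the distance in kb from the left end of that gene. The 4 KO rows hold 7, 14, 9 and 13 peaks, and the 8 WT rows hold 0.

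Of the WT intergenic regions, 49 of 1776 (2.76%) had any KO peak, against 4.73% of all WT regions. Of the 34 regions in all 4 WT IL-21 libraries, 31 had none, 3.05% of 1017 against 2.9% for all regions. Exceptions were Col19a1, Mllt6 and Eapp. KO libraries held 135, 445, 249 and 167 intergenic peaks, again in that order, and the WT minus KO difference was 0.11 on the log2 scale (exact permutation p = 0.815).

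Recurrence by distance from the gene was 6.91% of 622 regions at 1 to 5 kb, 9.36% of 481 at 5 to 10 kb, 8.38% of 680 at 10 to 20 kb and 6.79% of 899 at 20 to 50 kb, with overlapping 95% intervals. The nearest gene's strand was known for 2120 regions, of which 54.2% lay upstream (exact interval 52.0% to 56.3%). Gained regions lay upstream in 11 of 22. Non-coding genes covered 17.6% of all intergenic summits and 25.0% of the 28 gained ones. Chromosome 11 held 7 of the 28 gained regions, 4 of them in the Socs3 and Tha1 chain, out of 195 intergenic regions there, and the X chromosome held 0 among 85.

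At the inner bound of the rule, the regions 1015 bp from Skil and 1054 bp from Zfp36 were each found in 2 WT IL-21 libraries, with mean folds of 6.04 and 5.87. Just within the excluded 1000 bp, the regions 976 bp from Atp6v0a1 and 911 bp from Rtn2 were found in 3 and 4 of them, with 5.72 and 10.4. At the outer bound, the region 49196 bp from Uqcrfs1 (2 libraries, 6.79) was inside, and those 51639 bp from Efcab11 (2 libraries, 5.47) and 52011 bp from Spin4 (2 libraries, 4.63) were outside. A region 49141 bp from Gm52481, the other nearest inside the outer bound, had 1 WT IL-21 and 1 KO peak.

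The treatment effect on recurrence was 30.9 points for intergenic regions, 17.2 for gene-end regions, 22.6 inside genes and 13.5 beyond 50 kb. The intergenic effect exceeded these by 13.7, 8.26 and 17.4 points, with exact permutation p of 0.111, 0.0556 and 0.0556 (adjusted p = 0.333 each, over 18 differences between classes). The intergenic class was therefore not shown to respond differently from the others.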

How the data were processed

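CUT&RUN peak lists of 12 antibody libraries were used. The input was not analysed here. Tools in the submitters' processing notes are deepTools 3.5.1, MACS2 2.2.7.1, Bowtie2 2.4.1 and Trimmomatic 0.39, on mm10, with no roles. The labels record 1 pg of yeast spike-in, with its use not given in the sources used here. Every deposited list gives, per peak, the authors' fold (a ratio to an estimated background), −log10 p, −log10 q and score. The depth of each library is unknown. The lowest deposited −log10 p was 5.00, so a missing peak does not mean missing binding.

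Of 13908 peaks, 395 on other sequences were left out. The remaining 13513 were merged when overlapping by 1 bp. Distances were taken to 21887 protein-coding gene spans in RefSeq on GRCm38.p6, the assembly behind mm10. Promoter and miRNA sequences are RefSeq's on GRCm38.p6. Recurrence is the share of a library's intergenic regions found in another library. Measures per library were compared by two-sided exact permutation within strata, with Benjamini-Hochberg adjustment over 3 contrasts, and presence per region by Fisher's exact test over 7461 WT regions. The functions were tested on simulated lists. Python 3.11.15, pandas 2.3.3 and scipy 1.17.1 were used. Members, gene lists and tests were chosen with earlier results of these data known.

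Named were regions in all 4 WT IL-21 libraries, in at least 10 libraries, strongest in 1 isotype alone, lost, KO only, nearest list genes (with at least 2 libraries), genes with most regions, and those next to the bounds. Ties among genes were listed alphabetically. The Wdr81 and Mrgprd regions and the single St6galnac1 stretch as a whole were chosen after values were seen. Alternatives were other peak thresholds, equal list lengths, other bounds, other overlaps, all RefSeq genes, a replicate block and leaving out each library. A few single regions are not reported here.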

Additional observations from a re-analysis of the deposited data

Results flagged for a closer look

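The recurrence of intergenic regions in the first WT IL-21 IgG1 library was 28.0%, while the other 3 WT IL-21 libraries lay between 35.6% and 37.1%. Its gap to the nearest of them was 0.842 of the whole range, above Dixon's critical value for a set of 4. In all, 18 sets of 4 were checked, and chance marks about 1 in 20. This library also had the shortest WT IL-21 list, 865 peaks.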

How the results depend on the processing

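Treatment differences in recurrence, in the number of intergenic peaks and in the ratio to gene-end regions kept their sign under every alternative run, but their sizes moved. Those of the latter pair moved by over 1.5 times with the peak thresholds. With 623 peaks from each list, the difference in recurrence rose from 30.9 to 48.5 points, and that in log2 peaks fell from 0.737 to 0.165. Signs changed elsewhere, and the cause was not tested. With only peaks of −log10 q at least 5, the values were -2.29 for the WT minus KO share, -1.85 for isotype recurrence, -2.29 and 1.46 for the share with a fold of at least 5 by treatment and isotype, and 27 regions gained in IgG1 cells. With a fold of at least 5, that share was -2.55 and the gained count 26, fewer peaks being tested. With 623 peaks from each list, isotype and genotype differences in peaks were -0.084 and -0.019, the WT minus KO share -0.384 and the isotype difference in fold 6.73. Beyond 5000 bp the WT minus KO share was -0.742, and up to 20000 bp the isotype share was 0.072. With all RefSeq genes as spans, the treatment share was -4.37.

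Leaving out 1 library, treatment, isotype and genotype differences ranged from 0.56 to 0.91, 0.41 to 0.76 and -0.14 to 0.68 for log2 peaks, from 0.067 to 2.23, -1.70 to 0.46 and -0.89 to 1.17 for the share, from 25.2 to 32.6, 0.298 to 3.77 and 2.65 to 14.1 for recurrence, from 13.8 to 28.1, -11.6 to 2.70 and 3.07 to 15.3 for fold, and from -1.02 to -0.78, -0.59 to -0.34 and -0.52 to 0.17 for the ratio. Gained counts ranged from 28 to 58 in both isotypes (58 without IgG1 library 1), 86 to 437 in IgM (277 without IgM library 1, 437 without library 2) and 47 to 336 in IgG1 cells (336 without library 1, 206 without library 2), and regions of all WT IL-21 libraries without a KO peak from 30 to 57. Fewer libraries have to agree in these counts.

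Correlations of deviations between groups, matched by replicate number, were -0.12 to 0.21 over 160 regions. They rest on called peaks alone, so they cannot show whether replicate numbers pair the samples. With the replicate number as a block, the recurrence differences were 30.9 (exact permutation p = 0.125), 2.88 and 5.44 points, and no direction changed. Without depth, missing peaks cannot be told from uncalled ones.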
